A study of Rattus norvegicus with 6 samples.

Results

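The immediate early genes described here are 10 genes of the rapid transcriptional response: the AP-1 family members Fos, Fosb, Fosl2, Jun and Junb, the transcription factors Egr1, Nr4a1 and Atf3, the nuclear protein gene Ier2 and the phosphatase gene Dusp1. Every probe set that the array annotation maps to exactly 1 of these symbols was taken, which gave 15 probe sets for the 10 genes, out of 31042 probe sets and 14217 genes in all. No probe set of a member also carried another symbol. Genes of this class are transcribed soon after a stimulus reaches the cell, from promoters held ready by factors such as SRF and CREB, and need no new protein for their induction. Most of their transcripts are unstable, so their level falls again soon after the signal ends. In the kidney they are known for rapid induction by growth factors, osmotic stress and ischaemia.

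Kidney RNA was measured in 6 male rats, 1 Affymetrix Rat Expression Array 230 2.0 per rat. The 3 control rats were Dahl salt-sensitive (S) rats, an inbred strain that becomes hypertensive on a high-salt diet. The 3 congenic rats, S.LEW(10)x12x2x3x5, had the Dahl S background, and by the usual reading of the strain name carry Lewis (LEW) rat alleles on a piece of chromosome 10, whose limits were not placed here. All 6 rats were 53 days old, had been weaned at 30 days and ate a low-salt (0.3%) diet, and each cage housed 1 S rat with 1 congenic rat. The time from death to RNA extraction is not given in the sources used here. The study concerns endosomal recycling and proteinuria, and the question here is how this set of transcripts compares between S and congenic kidneys.

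The array medians lay between 7.48 and 7.51 (log2 intensity), and the precision of every value rests on 3 rats per strain. The kidney label held by its markers: the thick ascending limb gene Umod stood at 14.6 to 14.8 and the proximal tubule genes Lrp2 and Slc34a1 at 13.5 to 14.2 on every array. Of 4 adrenal cortex genes analysed, Cyp11b1 stood at 4.33 to 4.51, near the lowest value of the table (3.76), Star at 6.25 to 6.46, Cyp11a1 at 6.64 to 7.60, higher in congenic rats without overlap and not called, and Hsd3b1 at 6.84 to 7.77, called lower by limma (-0.57, adjusted p = 0.0369). The mean 3′ minus 5′ difference of the beta-actin and Gapdh control probe sets, a measure of RNA integrity and labelling that is wider in broken RNA, ran from 1.56 to 2.10 among S rats, with S rat 2 the highest, and from 1.01 to 1.26 among congenic rats. The strains were apart in it by -0.67 (two-sided exact permutation test, p = 0.1, which is the lowest p that 3 against 3 rats can give). The summed level of 7 smooth muscle and fibroblast markers lay between 14.35 and 14.43 for S and between 14.67 and 14.81 for congenic rats (log2), with 7 of 7 genes above 0 and 2 called. That of 8 leukocyte markers was 10.97 to 11.18 and 11.25 to 11.33, with 6 above 0 and 2 called. The sum of 6 adipocyte markers was 11.74 to 12.32 in S and 11.22 to 11.65 in congenic rats, with 0 above 0 and 1 called lower. S rat 2 stood apart in some distal tubule and podocyte markers, but not in tubule markers in general. The sum of 7 distal and collecting duct genes was 13.48 in this rat and 14.37 to 14.78 in the other 5. Of these genes, Aqp2 (12.80) and Slc4a1 (10.41) lay within the range of the other rats. So did its thick ascending limb sum (15.59) and proximal tubule sum (16.79), and Lrp2 and Umod were highest in this rat. In S rat 2 the distal genes Calb1 and Slc12a3 were at 9.38 and 9.50, and in the others at 12.73 to 13.52 and 11.73 to 12.42, while the podocyte gene Nphs1 was at 5.67 and in the others at 6.90 to 8.87. The proximal tubule glucose transporter gene Slc5a2 was called higher in congenic rats, by 1.67 (log2, adjusted p = 0.0333), and was lowest in S rat 2. The part of these markers in the results below was not tested. The 3′ minus 5′ difference was fitted as a term in an alternative model. Since it separates the strains, its part cannot be told apart from that of strain.

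Among the immediate early genes, Nr4a1 was higher and the brighter Fosl2 probe set was lower in the congenic kidney, each by about the same factor. The other Fosl2 probe set had a log2 change of 0.0053. No probe set of Fos, Fosb, Jun, Junb, Egr1, Atf3, Ier2 or Dusp1 passed the test. Neither call was kept with the 3′ minus 5′ difference as a term in the model. Of the 15 probe sets, 1 was called higher and 1 lower, and 13 were not called (limma, adjusted p under 0.05 over all probe sets). Over all probe sets 6.00% were called, 3.47% higher and 2.53% lower. The strains did not overlap in 3 of the 15, as in 31.2% of all probe sets. With each gene taken by its brightest probe set, meaning the highest mean over the 6 arrays, 1 of 10 members was called higher and 1 lower, where 4.79% of all genes were called, 2.12% higher and 2.67% lower. Of the brightest probe sets, 8 of 10 stood above 0, with a median congenic minus S difference of 0.08 (log2), beside 40.6% above 0 and a median of -0.03 over all genes. With the 3′ minus 5′ difference as a term in the model, 5 of 10 stood above 0 with a median of 0.026, beside 53.0% and a median of 0.012 over all genes. The median size of the difference, regardless of sign, was 0.11 for the members and 0.10 for all genes. In bulk tissue, fewer cells of a type and less RNA per cell cannot be told apart.

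**Figure D1:**
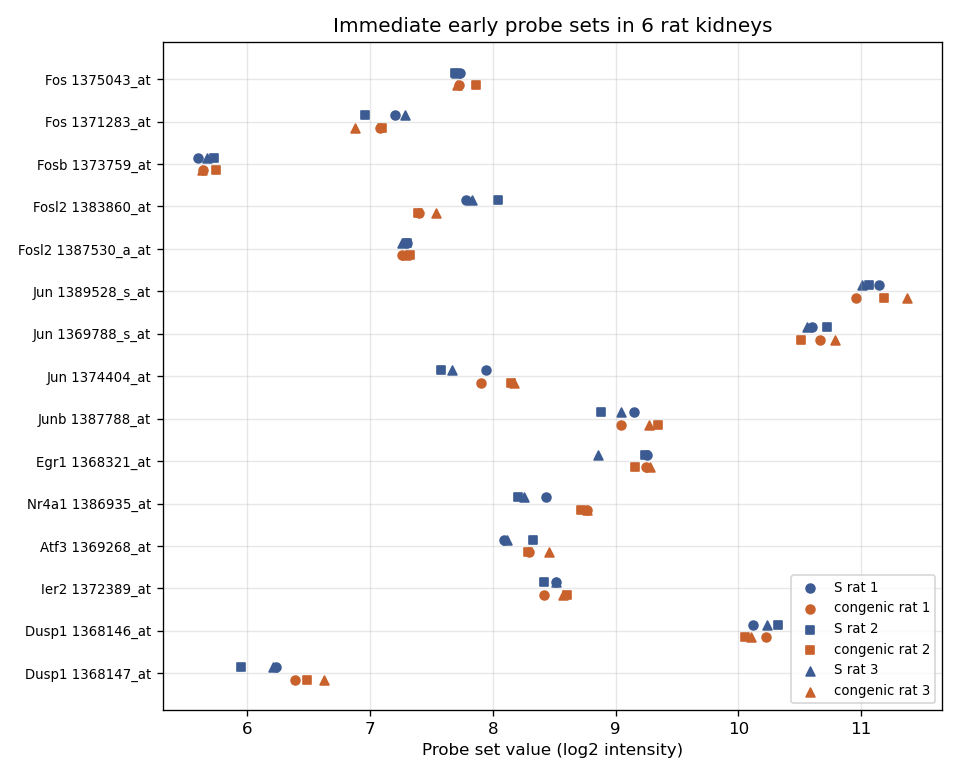
Value of each immediate early probe set (log2 intensity, horizontal axis) in each of 3 S rats (blue) and 3 congenic rats (orange), with the marker shape giving the rat number. Nr4a1 lies higher in every congenic rat and the upper Fosl2 probe set lower, while most other probe sets overlap between the strains.

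Nr4a1 encodes an orphan nuclear receptor that binds DNA without a known hormone ligand and is induced by calcium and cyclic AMP signals. Its probe set (1386935_at) was at 8.44, 8.20 and 8.25 in S rats 1, 2 and 3 and at 8.77, 8.72 and 8.77 in congenic rats 1, 2 and 3 (log2). Every congenic rat stood above every S rat, and the congenic rats were almost equal. The mean rose from 8.30 ± 0.12 to 8.75 ± 0.028 (SD, n = 3), a log2 change of 0.46 ± 0.077 (SE). This was 1.37-fold, with a 95% interval of 1.22 to 1.55 (limma, adjusted p = 0.0235). Groups that did not overlap in this direction were seen in 12.7% of all probe sets.

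Fosl2 encodes Fra-2, a Fos family protein that pairs with a Jun protein to form AP-1. Its probe set 1383860_at was at 7.79, 8.04 and 7.83 in S rats 1, 2 and 3 and at 7.40, 7.39 and 7.54 in congenic rats (log2). All S rats lay above all congenic rats, and S rat 2 was the highest. The value fell by 0.44 ± 0.086 (SE) on the log2 scale, which is 1.36-fold lower with a 95% interval of 1.19 to 1.56 (limma, adjusted p = 0.0322). Groups that did not overlap in this direction were seen in 18.4% of all probe sets. The second probe set of Fosl2 (1387530_a_at) did not show this difference: it lay between 7.26 and 7.33 on all 6 arrays, with a log2 change of 0.0053 (95% interval -0.13 to 0.14, adjusted p = 0.97). Within each array, the ratio of the second to the first probe set was 0.45 higher in congenic rats (log2), with no overlap between strains (two-sided exact permutation test, p = 0.1, the lowest possible, and 0.2 after adjustment over the 6 pairs of probe sets compared). The Fosl2 call therefore belongs to the first probe set, and the files do not say which transcripts each of the pair detects.

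Both calls depended on which arrays and which terms were in the model. When S rat 3 or congenic rat 1, 2 or 3 was left out, neither was called: with these rats left out in that order, the adjusted p for Nr4a1 was 0.0907, 0.0633, 0.0971 and 0.13, and that for Fosl2 was 0.0927, 0.0801, 0.13 and 0.11 (limma). In the same order these fits called 0, 350, 0 and 8 of all probe sets. The differences themselves moved little in these fits, from 0.43 to 0.47 for Nr4a1 and from -0.49 to -0.42 for Fosl2. Without S rat 1 the differences were 0.53 for Nr4a1 and -0.49 for Fosl2, and without S rat 2 they were 0.41 and -0.36, with both genes called. With the rat number as a block in the model, Nr4a1 was called (limma, adjusted p = 0.0465) and Fosl2 was not (adjusted p = 0.0631). With the 3′ minus 5′ difference as a term, Nr4a1 stood at 0.28 ± 0.14 and Fosl2 at -0.18 ± 0.15 (SE), and neither was called (adjusted p = 0.76 and 0.88). That term itself separates the strains, and with it 0 of all probe sets were called.

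**Figure D2:**
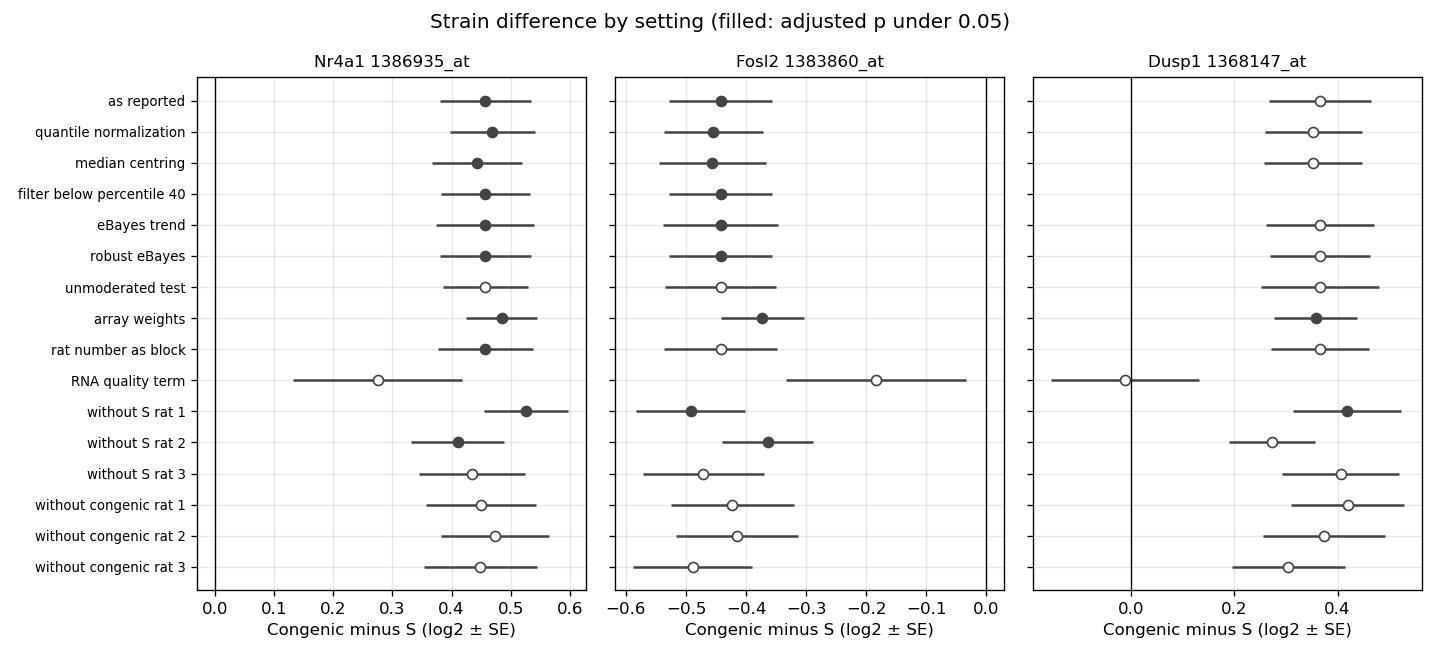
Congenic minus S difference (log2, bars are SE) of Nr4a1, of the Fosl2 probe set 1383860_at and of the dimmer Dusp1 probe set, as reported and under each alternative. Filled points have an adjusted p under 0.05. Nr4a1 and Fosl2 keep their direction in every alternative shown, and the Dusp1 point lies at -0.012 with the RNA quality term.

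Dusp1 encodes a phosphatase that switches off MAP kinases and so limits the signal that induced it, and it was the only member that the gene table places on chromosome 10. Its brighter probe set (1368146_at) was at 10.12, 10.32 and 10.23 in S and at 10.22, 10.06 and 10.10 in congenic rats 1, 2 and 3 (log2). The strains overlapped, and the log2 change was -0.10 (95% interval -0.28 to 0.083, adjusted p = 0.50). It was 0.17 with the RNA quality term. The dimmer probe set (1368147_at) was at 6.24, 5.95 and 6.21 in S and at 6.39, 6.48 and 6.62 in congenic rats. Here every congenic rat lay above every S rat, with S rat 2 the lowest. The log2 change was 0.37 ± 0.098 (SE, 1.29-fold, 95% interval 1.10 to 1.51), and it did not pass (adjusted p = 0.0618). It passed without S rat 1 (0.42, adjusted p = 0.0305) and with array weights (adjusted p = 0.0147), and stood at -0.012 with the RNA quality term. The change of the dimmer probe set exceeded that of the brighter by 0.46 (log2), with no overlap of the within-array ratios (two-sided exact permutation test, p = 0.1, the lowest possible, and 0.2 after adjustment). The pair thus gave opposite signs for the same gene, and the dimmer lay at percentile 31.6 of all probe sets by mean level, against 86.4 for the brighter.

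Nr4a1 and the brighter Fosl2 probe set were called in opposite directions, so the promoters of these genes are shown. The Dusp1 promoter is shown because of its chromosome and its disagreeing probe sets. Each sequence runs 5′ to 3′ over 300 bases, from 250 before to 50 after the annotated start, on the strand of the gene, and is taken from RefSeq on the GRCr8 rat assembly. Nr4a1 is at chr7:134259888-134260187 (plus strand), Fosl2 at chr6:30039220-30039519 (minus strand) and Dusp1 at chr10:17184603-17184902 (plus strand). Capitals mark matches to the searched motifs on either strand.
Nr4a1: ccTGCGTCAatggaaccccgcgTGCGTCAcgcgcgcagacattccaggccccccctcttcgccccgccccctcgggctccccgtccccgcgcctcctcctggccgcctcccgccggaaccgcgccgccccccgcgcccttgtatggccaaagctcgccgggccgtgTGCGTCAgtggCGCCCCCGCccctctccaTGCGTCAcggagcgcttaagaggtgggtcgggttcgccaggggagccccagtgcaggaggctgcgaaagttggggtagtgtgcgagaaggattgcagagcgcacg
Fosl2: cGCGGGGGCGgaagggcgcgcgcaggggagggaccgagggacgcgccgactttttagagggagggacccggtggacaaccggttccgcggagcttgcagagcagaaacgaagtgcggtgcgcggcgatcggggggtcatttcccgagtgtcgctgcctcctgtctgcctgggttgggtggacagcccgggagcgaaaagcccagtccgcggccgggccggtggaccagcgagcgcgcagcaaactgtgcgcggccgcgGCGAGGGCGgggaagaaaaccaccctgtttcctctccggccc
Dusp1: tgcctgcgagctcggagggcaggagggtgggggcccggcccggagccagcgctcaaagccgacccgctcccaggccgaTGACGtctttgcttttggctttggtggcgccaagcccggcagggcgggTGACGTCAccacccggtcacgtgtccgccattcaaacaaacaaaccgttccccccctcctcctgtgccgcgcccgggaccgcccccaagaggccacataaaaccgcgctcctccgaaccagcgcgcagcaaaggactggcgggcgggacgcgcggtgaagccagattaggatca

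The motifs searched were the cyclic AMP response element (CRE) TGACGTCA, its core TGACG, the related TGCGTCA (chosen after the Nr4a1 sequence was read), the AP-1 motif TGANTCA, the EGR motif GCGNGGGCG, the TATA motif TATAAA and the CArG box bound by SRF. Each full CRE also counts as 2 cores, and each TGCGTCA holds a core on the other strand. Promoters were found for 7 of the 10 members; Fos, Jun and Atf3 were not matched. Nr4a1 holds 4 copies of TGCGTCA, with first bases at -248, -228, -84 and -55 from the start, and 1.90% of all 33469 promoters hold any. It also holds 1 EGR motif, at -73. In the Fosl2 window 2 EGR motifs were matched, at -249 and 9, and no CRE core; 4.98% of all promoters hold an EGR motif and 21.2% a CRE core. The Dusp1 window holds a full CRE at -124 and another core at -172, and Ier2 holds a full CRE at -66, a motif found in 1.83% of all promoters. Egr1 was the only one of the 7 with CArG boxes, 2 of them, at -105 and -83, where 1.64% of all promoters hold any. Junb had 1 CRE core, at -155, and the TATA motif at -49, and the window of Fosb had the TATA motif alone, at -180. No window of the 7 held the AP-1 motif. These matches describe the letters only and say nothing about binding.

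Of the other Fos proteins, Fos is the partner of Jun in the classical AP-1 dimer. Its brighter probe set (1375043_at) was at 7.74, 7.69 and 7.70 in S against 7.73, 7.86 and 7.71 in congenic rats (log2), a change of 0.059 (95% interval -0.10 to 0.21, limma, adjusted p = 0.65). The strains overlapped, and congenic rat 2 was the highest. The other Fos probe set (1371283_at) was at 7.20, 6.96 and 7.28 in S against 7.08, 7.10 and 6.88 in congenic rats, a change of -0.13 (95% interval -0.36 to 0.10, adjusted p = 0.48). It too overlapped between strains, and the signs of the pair differed. Fosb, a Fos paralogue, was at 5.60, 5.73 and 5.68 in S against 5.64, 5.74 and 5.63 in congenic rats, a change of 0.0028 (95% interval -0.15 to 0.16). At percentile 20.9 of all probe sets by mean level, Fosb was below the lower quartile of every array (5.88 to 5.96). No detection call was used, so a difference in Fosb may not have been detectable at this signal.

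The Jun proteins can form AP-1 with each other or with a Fos protein. For Jun, the probe set 1389528_s_at was at 11.15, 11.06 and 11.00 in S against 10.96, 11.18 and 11.37 in congenic rats (log2), a change of 0.10 (95% interval -0.14 to 0.34, limma, adjusted p = 0.62). The congenic rats enclosed the S rats in this probe set. The probe set 1369788_s_at was at 10.60, 10.73 and 10.56 in S against 10.67, 10.51 and 10.78 in congenic rats, a change of 0.026 (95% interval -0.17 to 0.23). The third Jun probe set, 1374404_at, was dimmer, with 7.94, 7.58 and 7.67 in S against 7.90, 8.15 and 8.17 in congenic rats. Congenic rat 1 lay below S rat 1, so the strains overlapped. The change of 0.34 ± 0.11 (SE, 1.27-fold) did not pass (adjusted p = 0.0989), and it was -0.095 with the RNA quality term. It passed without S rat 1 (0.45, adjusted p = 0.0177) and with array weights (adjusted p = 0.0123). Within arrays this probe set had a larger change than 1389528_s_at, by 0.25 (log2), without overlap (two-sided exact permutation test, p = 0.1, the lowest possible, and 0.2 after adjustment). Against 1369788_s_at it was larger by 0.32, with overlap (p = 0.2 by the same exact test). The other Jun pair and the Fos pair also overlapped (exact p = 0.7 and 0.2). Junb, which often restrains Jun activity, was at 9.15, 8.88 and 9.04 in S against 9.05, 9.34 and 9.27 in congenic rats. Its change of 0.20 (95% interval -0.031 to 0.43, adjusted p = 0.26) did not pass, and S rat 1 lay above congenic rat 1. With the RNA quality term Junb stood at -0.21.

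**Figure D3:**
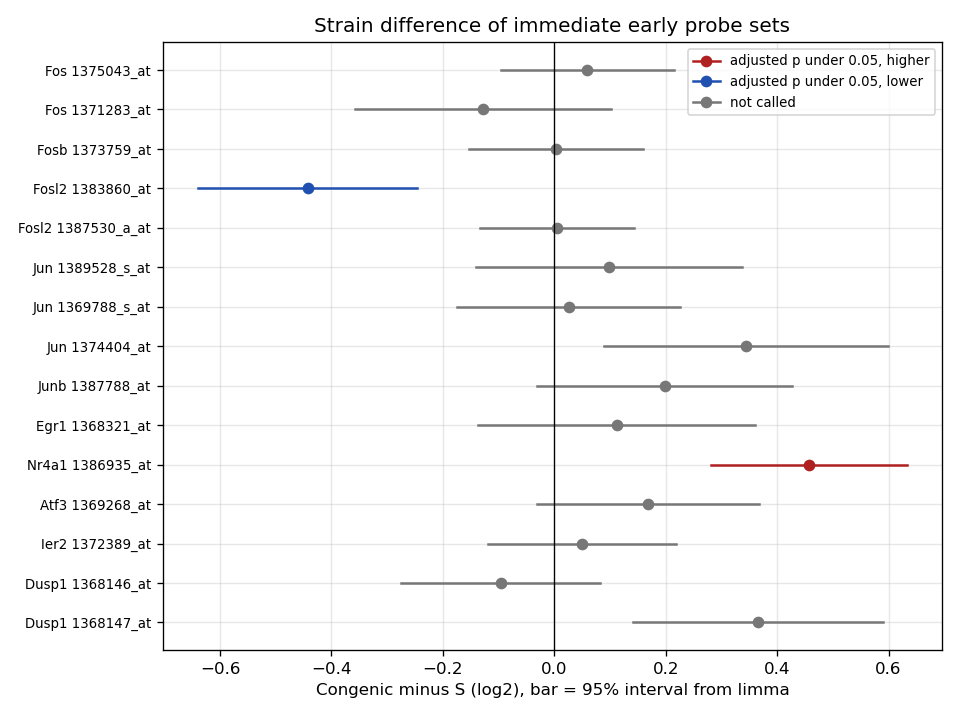
Congenic minus S difference (log2) of the 15 immediate early probe sets, with the 95% interval from limma as bars. The intervals of Nr4a1, the Fosl2 probe set 1383860_at, the dimmest Jun probe set and the dimmer Dusp1 probe set leave out 0, and only the first pair passed after adjustment.

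Egr1 encodes a zinc finger factor that is used as a marker of growth factor signalling. It was at 9.25, 9.24 and 8.86 in S against 9.25, 9.16 and 9.28 in congenic rats (log2). S rat 3 alone was low, and the other 5 rats lay within 9.16 and 9.28. The change was 0.11 (95% interval -0.14 to 0.36, limma, adjusted p = 0.58), and array weights gave 0.28 while leaving out S rat 3 gave -0.017, with no call in either fit. Atf3, a stress-induced member of the ATF/CREB family, was at 8.09, 8.33 and 8.11 in S against 8.29, 8.28 and 8.46 in congenic rats. S rat 2 reached the congenic range, and the change of 0.17 (95% interval -0.031 to 0.37, adjusted p = 0.27) did not pass. It passed with array weights (adjusted p = 0.0430). Ier2, a nuclear protein induced by growth factors, was at 8.51, 8.41 and 8.52 in S against 8.42, 8.61 and 8.57 in congenic rats, with overlap and a change of 0.050 (95% interval -0.12 to 0.22, adjusted p = 0.74). It was -0.15 with the RNA quality term. For Ier2, Egr1, Fosb and the brighter Fos and Jun probe sets the intervals leave differences of up to 0.16 to 0.36 (log2) possible.

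The spread within each strain was, by its median, somewhat wider than over the whole array. Over the 15 probe sets, the median of the SD across 3 rats was 0.12 (log2) among S and 0.098 among congenic rats, beside 0.10 and 0.076 over all probe sets. The SD was larger in S for 9 of these 15 probe sets and for 64.2% of all probe sets. With 3 values each, a single SD is imprecise, and no test was made. In S the widest was Egr1, with an SD of 0.22 (percentile 90.2 of all probe sets) set by S rat 3, and the same gene had 0.061 in congenic rats. Jun (1389528_s_at) went the other way, with 0.072 in S and 0.21 in congenic rats (percentile 96.9), where the rats lay between 10.96 and 11.37. Nr4a1 had 0.12 in S and 0.028 in congenic rats (percentile 10.2). The tightest in S was the Fosl2 probe set that did not differ between strains (1387530_a_at), with 0.021 in S and 0.033 in congenic rats, followed by Fos (1375043_at) with 0.025 in S.

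**Figure D4:**
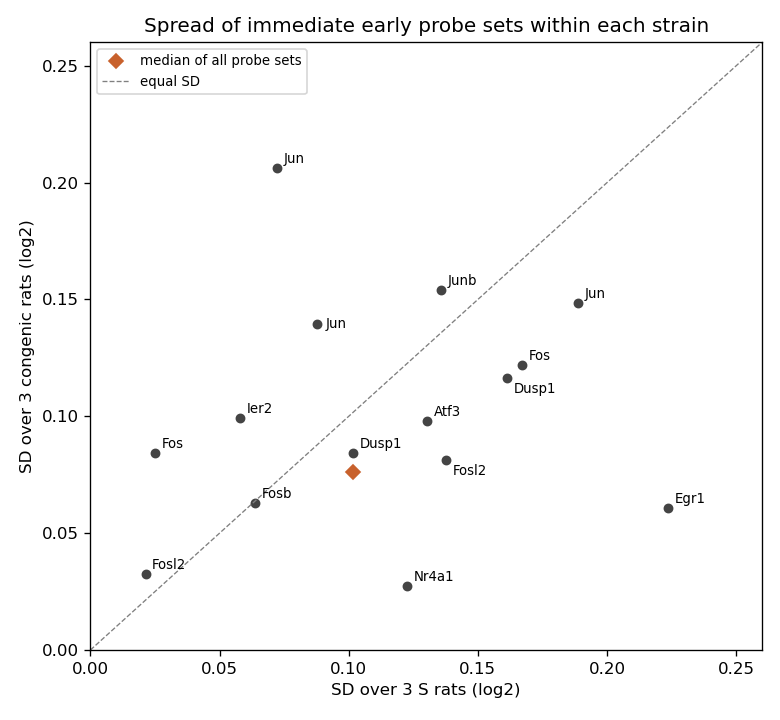
SD over the 3 S rats (horizontal axis) against SD over the 3 congenic rats (vertical axis), both in log2, for each immediate early probe set, with the median of all probe sets as a diamond. Egr1 and Nr4a1 lie well below the line of equal SD and 1 Jun probe set well above it.

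No rat was high or low for all members at once. Within S, rat 1 had the highest value in 8 of 15 probe sets, rat 2 in 5 and rat 3 in 2, where rat 1 was highest in 29.8%, rat 2 in 41.2% and rat 3 in 29.0% of all probe sets. S rat 2 was the lowest in 7 of 15, and in 32.7% of all probe sets. Among the 7 were Nr4a1, Junb, Ier2, the dimmest Jun and the dimmer Dusp1 probe sets. The 5 in which S rat 2 was the highest included Fosl2 (1383860_at), Atf3 and the brighter Dusp1 probe set. This rat also had the widest 3′ minus 5′ difference. Within the congenic strain, rat 3 was the highest in 8 of 15 and rat 1 in 1 of 15, where 30.1% and 35.5% of all probe sets had that rat highest. Several of these probe sets share a gene, so the counts are not independent.

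The mean profile of the 10 members, each centred on its own mean over the arrays, ran from -0.074 in S rat 3 to 0.073 in congenic rat 3 (log2). The 5 other genes most like it, by the mean absolute difference between centred profiles over the 6 arrays, were Asf1b (0.0077), Arpc3 (0.012), Dtx1 (0.014), Rpl39l1 (0.014) and Farsb (0.014), out of 14081 genes with a comparable range. None of these was called between strains (limma, adjusted p from 0.45 to 0.75), which the choice by likeness to so narrow a profile largely fixed beforehand. Nearest to Fos (1375043_at) alone were Alk (0.0099), Sln (0.011) and Fut2 (0.011), over a Fos range of only 0.17. For Egr1 they were Il1rap (0.029), Poc5 (0.035) and Exoc7 (0.035). These share the low value of Egr1 in S rat 3, which the choice by likeness largely fixed beforehand.

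Other early response genes from a list chosen with earlier results known were each taken by the brightest probe set. Of 49 analysed, 2 were called higher, 0 lower and 47 were not called, with 31 above 0 and a median difference of 0.06 (log2). Over all genes 4.79% were called, 2.12% higher and 2.67% lower, 40.6% stood above 0 and the median was -0.03, so the share called in this list was near that of all genes. The strains did not overlap in 13 of the 49, 11 higher and 2 lower, where 10.9% of all genes lay higher and 22.5% lower without overlap. Errfi1, which encodes an inhibitor of the EGF receptor, was at 10.95, 10.38 and 10.60 in S against 11.39, 11.21 and 11.64 in congenic rats, all above the S rats (1.71-fold, limma, adjusted p = 0.0331). Ier3, an early response gene of cell survival, was at 10.28, 9.90 and 10.08 in S against 10.64, 10.49 and 10.78 in congenic rats (1.46-fold, adjusted p = 0.0341). Bhlhe40, a transcriptional repressor, had a difference of 0.41 (adjusted p = 0.0534), Trib1 0.47 (adjusted p = 0.0865) and Hbegf, a ligand of the EGF receptor, 0.31 (adjusted p = 0.0868), and in all of these the strains did not overlap. The Nr4a1 paralogues Nr4a2 and Nr4a3 stood at -0.052 and -0.094, and the Egr1 paralogues Egr2, Egr3 and Egr4 at -0.040, -0.022 and -0.056, none of them called. Errfi1 and Ier3 were not called without S rat 2 (limma, adjusted p = 0.0522 and 0.0569), and with the RNA quality term they stood at 0.29 and 0.23 (adjusted p = 0.91 and 0.90).

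Of 22 upstream kinases and transcription factors, 1 was called higher and 0 lower, with a median of -0.078, where 4.79% of all genes were called, 2.12% higher. The called gene was Atf2, a stress kinase target that can pair with Jun, at 6.81, 6.64 and 6.78 in S against 7.13, 7.25 and 7.16 in congenic rats (1.35-fold, limma, adjusted p = 0.0235). With the rat number as a block Atf2 was not called (adjusted p = 0.0581). Of the 22, 4 lay higher and 8 lower without overlap, beside 10.9% and 22.5% of all genes. Srf, which binds the CArG box, stood at 0.044, Creb1, which binds the CRE, at 0.043, Elk1, a partner of Srf, at -0.17 and Elk4, another partner, at -0.21 (adjusted p from 0.0865 to 0.83). Ep300, a coactivator of CREB, was at -0.23, Mapk9 at 0.34 and Mapk8, both of them Jun kinases, at -0.23, none called. Among 13 AP-1 partners and related bZIP factors, Atf2 and Maf were called higher and 0 lower, with a median of -0.038, beside the same 2.12% higher over all genes. Maf was at 11.67, 10.67 and 11.14 in S against 12.34, 12.18 and 12.22 in congenic rats, 2.12-fold higher (adjusted p = 0.0320), and its other probe sets stood at 0.47 (adjusted p = 0.0917) and 0.44 (adjusted p = 0.0458). Jund, the Jun paralogue that is expressed without a stimulus, stood at -0.077, Fosl1 at -0.025, Ddit3 at -0.25, Jdp2 at 0.19 and Maff at -0.18, none called. Of the 13, 2 lay higher and 3 lower without overlap, beside the same shares of all genes. Jund, Fosl1, Maff and Mafk also stood on the early response list, and Atf2 and Atf4 on the upstream list.

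Of 12 factors of AU-rich element mRNA decay and stability, 1 was called higher, 1 lower and 10 were not called. Their median was -0.054, and over all genes 2.12% were called higher and 2.67% lower. Of the 12, 2 lay higher and 5 lower without overlap, beside 10.9% and 22.5% of all genes. Hnrnpd, which binds AU-rich elements of unstable mRNAs, was at 9.91, 9.62 and 9.74 in S against 10.33, 10.30 and 10.30 in congenic rats (1.47-fold, limma, adjusted p = 0.0201). Pan2, a poly(A) nuclease subunit, was at 9.80, 9.98 and 9.87 in S against 9.66, 9.46 and 9.52 in congenic rats, 1.26-fold lower (adjusted p = 0.0471), and its dimmer probe set stood at 0.013. Pan2 was not called without S rat 2 (adjusted p = 0.0962) or with the rat number as a block (adjusted p = 0.11). Its partner Pan3 stood at -0.25 (adjusted p = 0.10), Xrn1, a 5′ exonuclease, at -0.25, Khsrp at -0.15 and Zfp36, which speeds the decay of such mRNAs, at 0.18, none called. With the RNA quality term Atf2 stood at 0.20, Maf at 0.23, Hnrnpd at 0.30 and Pan2 at -0.064, and none was called (adjusted p from 0.71 to 0.97). None of the called genes named from these 4 lists was called without S rat 3 or without any of the 3 congenic rats. Few probe sets of the whole array were: 0 without S rat 3, and 350, 0 and 8 without congenic rats 1, 2 and 3. The fit with the RNA quality term called 0 of all probe sets.

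**Figure D5:**
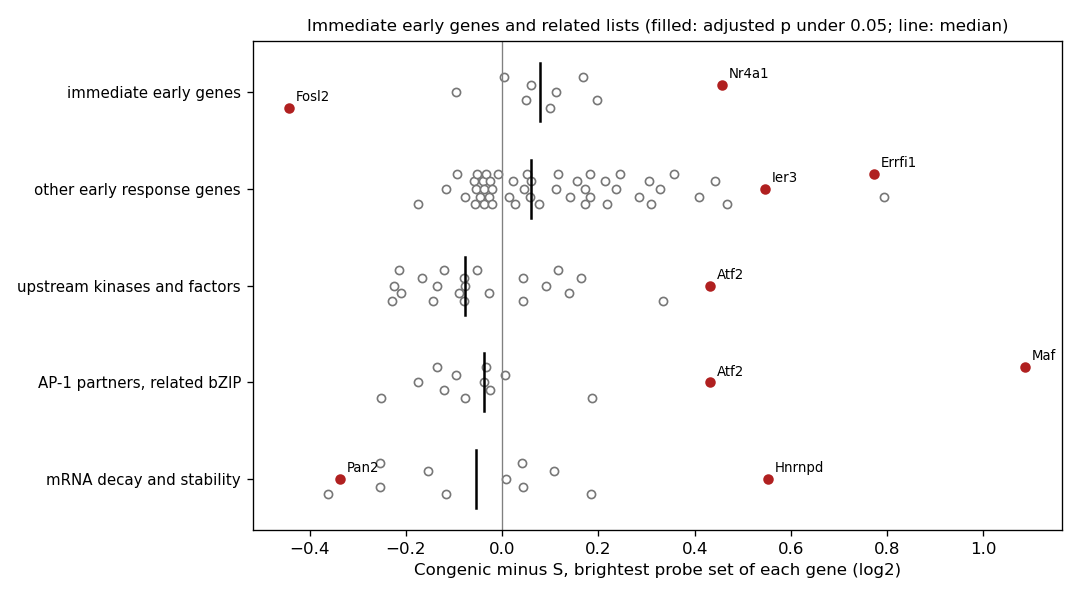
Congenic minus S difference (log2) of the brightest probe set per gene, for the immediate early genes and 4 related lists. Filled points have an adjusted p under 0.05, and the vertical line in each row is its median; Atf2 appears in 2 lists.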

How the data were processed

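Kidney RNA of 6 rats was measured on 1 array each. The deposited table holds log2 probe set values already comparable between arrays, judged from the values; the software behind them is not given in the sources used here, and per the labels' design text p-values were adjusted in R 2.8.1. Of 31099 probe sets, 57 Affymetrix controls were left out of the tests. Of the remaining 31042, 20826 had 1 symbol, 436 several and 9780 none listed; current symbols came from the GRCr8 gene table of RefSeq through Entrez numbers (20758 matched). Groups came from the sample titles.

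The strain comparison used R 4.3.3 and limma 3.58.1 (linear models with eBayes, two-sided, Benjamini-Hochberg over all probe sets, adjusted p under 0.05), with 4 residual degrees of freedom, and 8.49 with the prior. The labels say the arrays are of separate rats. Figures were drawn with matplotlib 3.10.9. Members, lists and tests were chosen with earlier results of these data known. The text names every member, up to 5 genes of each pathway list with the smallest p, and the genes nearest in profile. Paralogues (Nr4a2, Nr4a3, Egr2, Egr3, Egr4, Jund, Fosl1), Srf, Creb1, Elk1, Zfp36 and the probe sets beside a called gene were named in addition, after their values were seen. Alternatives were other normalizations, a filter at percentile 40 of mean level, other eBayes settings, weights per array, a block for the rat number, fits without each rat and the control probe sets' 3′ minus 5′ difference as a term.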

Additional observations from a re-analysis of the deposited data

How the results depend on the processing

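The count of immediate early probe sets called (2 of 15) and of all probe sets called (1862) did not change by over 1.5 times under quantile normalization, median centring, the filter on dim probe sets, an intensity trend or robust eBayes. An unmoderated test called 0 members and 0 probe sets in all, with 3 members and 6166 of all under 0.05 before adjustment. Array weights called 5 members and 6077 in all. The rat number as a block called 1 member and 658 in all: Nr4a1 was kept (adjusted p = 0.0465) and Fosl2 was not (adjusted p = 0.0631). Of the called genes named from the related lists, Atf2 and Pan2 were not called with this block (adjusted p = 0.0581 and 0.11). No label says whether the numbers mark cage mates. The deviations of same-numbered rats from their strain means correlated at -0.014, -0.18 and -0.14, and those of differently numbered rats at -0.25 to 0.38. These values cannot settle it, since cage mates need not be alike in expression. With the RNA quality term limma called 0 members and 0 in all (1 and 2292 under 0.05 before adjustment), and the median member difference was 0.026 (log2). Leaving out each rat in turn gave 0 to 4 members, 0 to 4752 probe sets and a median of 0.052 to 0.10; 4 members and 4752 were reached without S rat 1. At an adjusted p under 0.1, 4 members passed. With each gene taken by its most variable probe set the median was 0.14. The median SD within strains, under alternatives chosen after seeing the data, stayed at 0.12 in S and 0.094 to 0.098 in congenic rats. No called member changed sign in any alternative. Signal limits Fosb most, and 3 rats a strain limit every value.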
